A study of Homo sapiens with 6 samples.

Results

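The 48 genes described here serve the cell division cycle: 21 are listed as genes of the G1/S transition or DNA replication, and 27 as genes of G2 and mitosis. They were chosen by name, as the gene rows of a deposited RNA-seq table that carry 1 of 48 listed symbols, and they make up 48 of its 58302 rows. All 48 had enough counts to be tested, among 15631 genes tested in all. The rule itself uses gene names and no measured value, but the list was drawn up with earlier results of these data known.

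The RNA came from A549, an established human lung adenocarcinoma cell line, at passages 6-8 in RPMI 1640 medium with 10% fetal bovine serum. There were 3 libraries from cells transfected with SNHG5, a long non-coding RNA that hosts small nucleolar RNAs, and 3 from cells transfected with vector, called control here. The series title concerns migration, invasion and the epithelial-mesenchymal transition, and the design asks what differs between SNHG5 and vector cells. The labels state neither whether the transfected cells were a pool or 1 clone nor how long after transfection they were harvested, and no untransfected library was analysed here.

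Cells commit to division at the G1/S transition, when the RB pocket proteins release E2F transcription factors. The factors then switch on the genes that license and copy DNA. Genes needed later, in G2 and mitosis, are held down early in the cycle by the DREAM complex and activated late by B-MYB and FOXM1. Both act at CHR elements, often beside CCAAT boxes bound by NF-Y. In a growing culture the RNA levels of both groups follow the share of cells in each phase. In bulk RNA, fewer cells in a phase and less RNA per cell cannot be told apart.

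Library totals ran from 13378079 to 16999604 counts, and 3 counts, the floor used for a gene not seen, correspond to 0.176 to 0.224 CPM, a count divided by its TMM-scaled library total. The transfected gene did not separate the groups. SNHG5 RNA was at 153, 126 and 62.8 CPM in its replicates 1, 2 and 3, against 60.9, 101 and 55.0 CPM in controls 1, 2 and 3. On the log2 scale this is 0.66 higher (SE 0.37), with an adjusted p of 0.746 from edgeR. The library labelled SNHG5 replicate 3 thus lay below control replicate 2, and every direction given here is between libraries as labelled. A pair of libraries stood apart from their groups: the chi-square per degree of freedom between counts was 26.2 for SNHG5 replicates 1 and 2 and 28.1 for control replicates 1 and 3, but 85.9 to 94.5 for any comparison within a group that involved SNHG5 replicate 3 or control replicate 2. For members given with their values in every library, a log2 difference that leaving out either library moves by over 1.5 times is also printed without it, unless both are under 0.20 in size. The other members are covered by the medians without each library. All 5 epithelial markers were detected, with a summed level of 2102 to 3392 CPM in the SNHG5 libraries and 3517 to 4070 CPM in the controls. Nearly all of it was the keratins KRT8 and KRT18, while EPCAM held 2.26 to 4.18 CPM and CLDN4 0.349 to 0.786 CPM. KRT8 was lowest in SNHG5 replicates 1 and 2, and whether this moved with the cell cycle values was not tested. The 5 fibroblast markers together held 4.0 to 20.7 CPM in the SNHG5 libraries and 8.97 to 18.9 CPM in the controls. The leukocyte list summed to 4.3 to 10.1 CPM and 4.0 to 10.4 CPM, most of it ITGAM at 2.62 to 10.2 CPM, above EPCAM in 5 of 6 libraries. CD14 of that list reached 1.69 CPM, and its defining members PTPRC and CD3E were at 0 in every library. No endothelial marker exceeded 2 counts.

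The promoters of replication and mitotic genes were searched for the motifs of these regulators. Windows from 250 bases before to 50 after the start were read from RefSeq on GRCh38.p14, which held 39 of the 48 genes, 17 of them replication and 22 mitotic. An E2F core, counted as TTCCCGC or TTCGCGC or TTGCCGC or TTGGCGC on either strand, was present in 14 of 17 replication genes (82.4%) and 6 of 22 mitotic genes (27.3%), against 15.3% of all 27305 genes. The CHR, TTTGAA on either strand, was present in 0 of 17 replication genes and 16 of 22 mitotic genes (72.7%), against 18.2% of all genes. CCAAT, on either strand, was present in 11 of 17 (64.7%) and 19 of 22 (86.4%), against 39.7% of all genes. E2F and CHR shared a window in 4 mitotic genes, in no replication gene and in 1.5% of all genes. Counted per window, of 35116 in all, the 3 backgrounds were 13.0%, 15.2% and 34.6%. A match is a description of letters and does not show that a factor binds there. The stretches printed here are the 120 bases before the start in 3 replication genes with an E2F core and 2 mitotic genes with a CHR, chosen because no annotated exon overlaps them. Capitals mark every E2F, CHR or CCAAT match, read 5′ to 3′ on the strand of the gene.
MCM6 (chr2:135876444-135876563, minus strand): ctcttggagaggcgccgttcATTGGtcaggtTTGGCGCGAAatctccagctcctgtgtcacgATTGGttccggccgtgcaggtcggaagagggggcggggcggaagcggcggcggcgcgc
CDC25A (chr3:48188418-48188537, minus strand): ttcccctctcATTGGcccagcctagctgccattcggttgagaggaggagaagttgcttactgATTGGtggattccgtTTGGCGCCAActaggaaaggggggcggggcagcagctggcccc
E2F2 (chr1:23531234-23531353, minus strand): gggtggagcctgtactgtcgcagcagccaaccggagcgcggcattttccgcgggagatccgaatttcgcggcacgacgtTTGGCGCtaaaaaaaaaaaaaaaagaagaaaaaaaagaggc
KIF11 (chr10:92593010-92593129, plus strand): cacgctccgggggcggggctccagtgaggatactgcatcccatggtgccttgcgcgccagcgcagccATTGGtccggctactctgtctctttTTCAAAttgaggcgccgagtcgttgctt
MKI67 (chr10:128126424-128126543, minus strand): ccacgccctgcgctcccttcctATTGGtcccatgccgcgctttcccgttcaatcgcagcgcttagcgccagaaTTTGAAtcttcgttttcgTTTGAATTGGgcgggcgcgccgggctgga
In MCM6 and CDC25A the long capital run is an E2F core matched on both strands, 2 matches that overlap. MKI67, the Ki-67 proliferation antigen, carries 2 CHR matches, 1 of which overlaps a CCAAT match. KIF11, the motor that separates spindle poles, has its CCAAT match upstream of its CHR match.

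Levels were compared between genes per kilobase of the longest annotated protein-coding transcript, called the longest transcript here, as the mean over all 6 libraries. A gene with no protein-coding transcript was given its longest transcript of any kind. PCNA, the sliding clamp of DNA polymerases, stood highest at 238 ± 99.1 CPM per kb (SD, n = 6). TPX2, a spindle assembly factor, followed at 119 ± 22.3, next to the topoisomerase TOP2A at 116 ± 41.4, the helicase subunit MCM7 at 103 ± 18.0 and the cytokinesis scaffold ANLN at 99.9 ± 34.6 CPM per kb. TPX2, TOP2A, MCM7 and ANLN differ by less than their spread. At the other end stood regulators: E2F2 at 1.48 ± 0.573, the cyclin CCNE2 at 1.60 ± 0.667, the phosphatase CDC25A at 3.36 and the repressor E2F8 at 3.76 CPM per kb. E2F2 and CCNE2 do not differ beyond their spread.

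**Figure D1:**
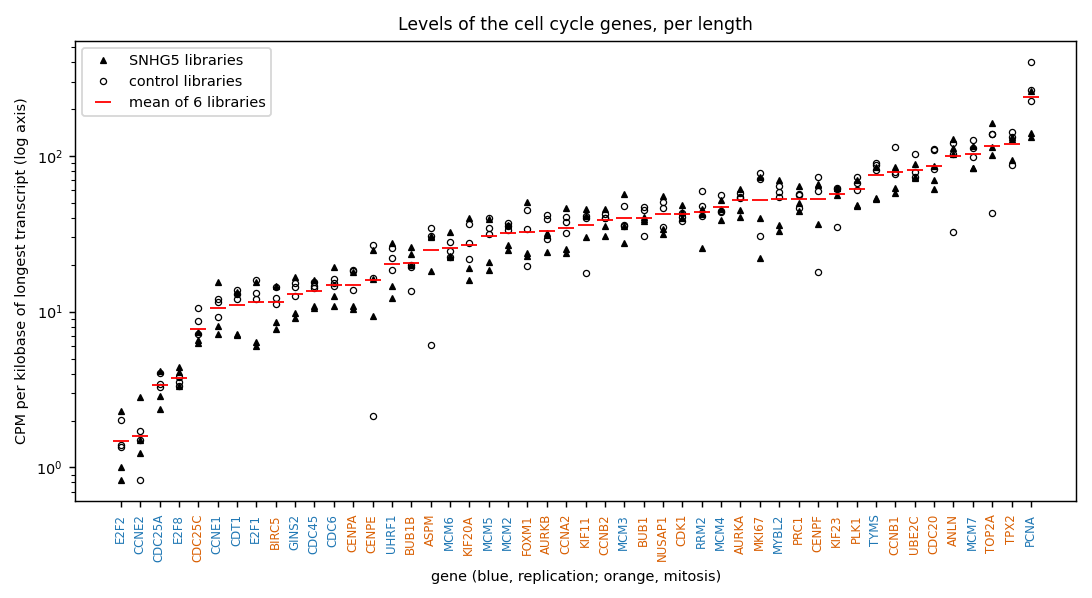
Level of the 48 genes in CPM per kb of longest transcript on a log axis, genes in rising order of their mean over 6 libraries (red dash), with triangles for SNHG5 and circles for control libraries and gene names in blue (replication) or orange (mitosis). PCNA stands highest at 238 and E2F2 lowest at 1.48 CPM per kb.

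None of the 48 genes differed between SNHG5 and control libraries past the threshold of an adjusted p under 0.05. In edgeR, 0 were called higher, against 0.0256% of all 15631 genes, and 0 lower, against 0.102%. At an unadjusted p under 0.05 the members again numbered 0, against 6.49% of all genes, and the member nearest to it was CDC20 at an edgeR p of 0.0565. DESeq2 called 0 members after adjustment (1.7% of all genes) and 1, PCNA, at an unadjusted p under 0.05 (7.43% of all genes). Limma-voom also called 0 (0.154% of all genes) and 1, again PCNA, without adjustment (6.83% of all genes). With the replicate number as a block, 0 members passed (0.467% of all genes did) and 2 had an unadjusted p under 0.05, PCNA and CDC20 (9.29% of all genes did). The smallest adjusted p with the block was 0.523. The edgeR test recovered 14.8% of 2-fold and 74.8% of 4-fold changes when checked on simulated counts of 15631 genes for this comparison. Differences of 2-fold were thus mostly not detected in such counts. The counts were drawn for each gene separately, with changes on random genes and no library that shifts many genes together. These shares are therefore not the sensitivity for the 48 members.

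Although no gene passed, the fitted differences were small for most members and leaned to lower values for the SNHG5 group. The fitted level was lower for 35 of 48 and higher for 13, with a median log2 difference of -0.19, beside 49.2% lower and a median of 0.01 over all genes. Against the control of the same number, 40 members were lower in SNHG5 replicate 1 and 33 in replicate 2, but 34 were higher in replicate 3. The lean is thus not one of all SNHG5 libraries. Members also vary together, with a median Pearson r of 0.81 between replication genes, so such counts are not of independent genes. Replication genes had a median of -0.25, with 17 of 21 lower and a range from -0.74 to 0.46. Mitotic genes had a median of -0.12, with 18 of 27 lower and a range from -0.48 to 0.42. The 95% interval of the difference lay within 2-fold in both directions for 30 members, 12 of replication and 18 of mitosis. For the other 18 a 2-fold difference lay inside the interval. Exons of 18 members overlap another gene, such as ENOSF1 for TYMS, ITFG2 for FOXM1, INTS8 for CCNE2, KIAA0895 for ANLN and AP4M1 for MCM7, so their values depend on how the reads were assigned and are uncertain to that extent. The groups did not overlap for 1 member, BUB1B, which was higher in all 3 SNHG5 libraries (6.04% of all genes did the same), and for 0 members in the lower direction (7.52% of all genes).

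**Figure D2:**
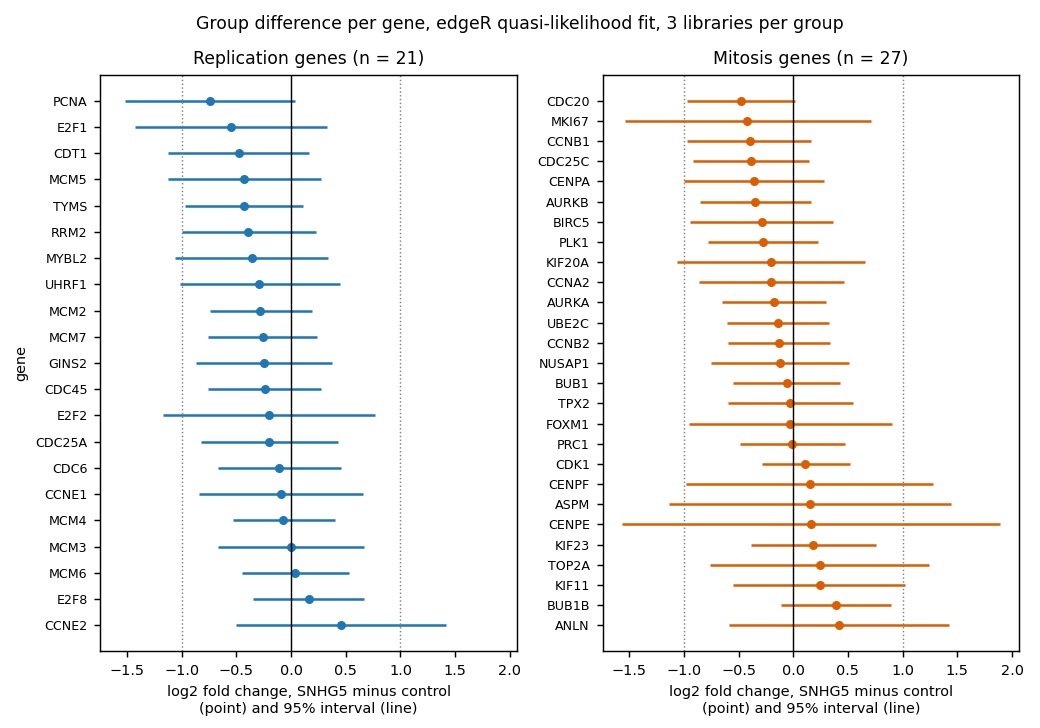
Log2 difference between SNHG5 and control libraries from edgeR, as a point with its 95% interval as a line, for the 21 replication and 27 mitotic genes; dotted lines mark 2-fold. Every interval crosses 0, from PCNA at -0.74 to CCNE2 at 0.46, and none passes the adjusted threshold.

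Gene coordinates, on GRCh38, were taken from the deposited table and span the whole gene. Among genes that license origins, CDT1 (ENSG00000167513, chromosome 16, 88803213 to 88809258, plus strand), which loads the replicative helicase onto DNA, held 23.0, 23.3 and 43.0 CPM in SNHG5 replicates 1, 2 and 3 and 41.8, 38.8 and 44.4 CPM in the controls. Its 2 low values are those of SNHG5 replicates 1 and 2, and SNHG5 replicate 3 lies inside the control range. The log2 difference was -0.48 (SE 0.28, edgeR adjusted p 0.746), and -0.85 without SNHG5 replicate 3. CDC6, its loading partner, differed by -0.11. Of the MCM2-7 helicase subunits 4 of 6 had a lower fitted level, from MCM5 at -0.43 and MCM2 at -0.28 to MCM6 at 0.04. MCM5 showed the same pattern as CDT1, with 74.1, 65.0 and 139 CPM in SNHG5 replicates 1, 2 and 3 and 112 to 140.5 CPM in the controls, and its difference was -0.85 without SNHG5 replicate 3.

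At the fork, PCNA (ENSG00000132646, chromosome 20, 5114953 to 5126626, minus strand) had the largest difference of the replication genes. It held 190.4, 180.4 and 356 CPM in SNHG5 replicates 1, 2 and 3, and 308, 547 and 359 CPM in controls 1, 2 and 3. Control replicate 2 is the highest of the controls and SNHG5 replicate 3 lies among the other controls. The log2 difference was -0.74 (SE 0.34, 95% interval -1.52 to 0.04), or 1.67-fold lower, with an edgeR adjusted p of 0.746. Without control replicate 2 it was -0.46, and without SNHG5 replicate 3 it was -1.13. CDC45 and GINS2, which activate the helicase, differed by -0.24 and -0.25. UHRF1, which carries DNA methylation through replication, differed by -0.29. TYMS (ENSG00000176890, chromosome 18, 657604 to 673578, plus strand), thymidylate synthase, held 89.5, 87.6 and 142 CPM in SNHG5 replicates 1, 2 and 3 and 135, 146 and 149 CPM with vector, or -0.43 on the log2 scale (SE 0.23) and -0.70 without SNHG5 replicate 3. RRM2, a ribonucleotide reductase subunit that also supplies nucleotides, differed by -0.39.

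The G1/S regulators were spread widely. E2F1 (ENSG00000101412, chromosome 20, 33675683 to 33686404, minus strand), the activator that releases this programme, held 15.0, 16.0 and 38.9 CPM in SNHG5 replicates 1, 2 and 3 and 30.2, 39.8 and 32.8 CPM with vector, or -0.55 on the log2 scale (SE 0.38) and -1.14 without SNHG5 replicate 3. Its SNHG5 replicate 3 value is 2.5-fold above the mean of SNHG5 replicates 1 and 2, the widest such gap among the members. Cyclin E1, CCNE1 (ENSG00000105173, chromosome 19, 29811898 to 29824308, plus strand), held 14.7, 16.6 and 31.8 CPM and 18.9, 24.8 and 23.7 CPM, a difference of -0.09 (SE 0.32) that was -0.52 without SNHG5 replicate 3. CCNE2 (ENSG00000175305, chromosome 8, 94879770 to 94896678, minus strand), its paralog, held 4.97, 4.14 and 9.36 CPM and 4.99, 2.75 and 5.72 CPM, a difference of 0.46 (SE 0.42), the highest of the replication genes and the one resting on the fewest counts, a mean of 85.0 per library. That difference was 0.20 without control replicate 2 and 0.02 without SNHG5 replicate 3. E2F8 (ENSG00000129173, chromosome 11, 19224063 to 19241620, minus strand), a late repressor of E2F targets, held 14.5, 11.8 and 15.6 CPM and 12.4, 11.7 and 13.3 CPM, with groups that overlap and a difference of 0.16 (SE 0.22). E2F2, CDC25A and MYBL2 differed by -0.20, -0.20 and -0.36. MYBL2 encodes B-MYB, an E2F target that activates later cell cycle genes, and is listed here with the G1/S regulators.

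CDK1 (ENSG00000170312, chromosome 10, 60778331 to 60794852, plus strand), the kinase that drives mitosis, held 84.6, 78.1 and 94.7 CPM in SNHG5 replicates 1, 2 and 3 and 84.2, 74.3 and 79.3 CPM in the controls. The log2 difference was 0.11 (SE 0.17, 95% interval -0.29 to 0.52), so that a 2-fold difference in either direction lies outside the interval. Cyclin B1, CCNB1 (ENSG00000134057, chromosome 5, 69167010 to 69178245, plus strand), its partner, held 126, 134 and 183 CPM and 165, 249 and 171 CPM, a difference of -0.40 (SE 0.24) that was -0.18 without control replicate 2, the highest control. CCNA2, CCNB2 and CDC25C differed by -0.20, -0.13 and -0.39. FOXM1 (ENSG00000111206, chromosome 12, 2857681 to 2877155, minus strand), the late-cycle activator, held 83.2, 79.2 and 176 CPM and 157, 119 and 68.5 CPM, a difference of -0.03 (SE 0.40) that was -0.50 without SNHG5 replicate 3. Its SNHG5 and control values overlap, and its same-numbered pairs differed by -0.92, -0.58 and 1.36.

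Checkpoint and anaphase genes gave the member with separate groups and the member nearest the threshold. BUB1B (ENSG00000156970, chromosome 15, 40161023 to 40221136, plus strand), a spindle checkpoint protein, held 87.2, 74.6 and 96.4 CPM in SNHG5 replicates 1, 2 and 3 and 74.0, 50.9 and 72.1 CPM in the controls, a difference of 0.39 (SE 0.21) that was 0.24 without control replicate 2. The groups are apart by a narrow margin, since 74.6 CPM in SNHG5 replicate 2 lies just above 74.0 CPM in control replicate 1. An exon of BUB1B overlaps a readthrough gene that joins it to PAK6, so how reads were divided between them affects its level. CDC20 (ENSG00000117399, chromosome 1, 43358955 to 43363203, plus strand), the activator of the anaphase-promoting complex, held 124, 109 and 154 CPM and 196, 147 and 194 CPM, a difference of -0.48 (SE 0.21, 95% interval -0.97 to 0.02). A processed copy of CDC20 held 1335 counts over the 6 libraries, or 9.18% of the 14536 counts of CDC20, and reads could be divided between the copies. Kinases PLK1, AURKA and AURKB differed by -0.28, -0.18 and -0.35, BUB1 by -0.06 and UBE2C, the ubiquitin-conjugating partner of the complex, by -0.14.

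The differences of several mitotic genes with long transcripts depended on control replicate 2, and some, such as that of MKI67, also on SNHG5 replicate 3. MKI67 (ENSG00000148773, chromosome 10, 128096659 to 128126385, minus strand) held 281, 503 and 921 CPM in SNHG5 replicates 1, 2 and 3 and 984, 387 and 903 CPM in the controls, a difference of -0.42 (SE 0.49). It was -0.73 without control replicate 2 and -0.95 without SNHG5 replicate 3. TOP2A (ENSG00000131747, chromosome 17, 40388516 to 40417950, minus strand), which untangles chromosomes, held 652, 586 and 932 CPM and 795, 248 and 793 CPM, a difference of 0.24 (SE 0.43) that was -0.13 without control replicate 2 and 0.01 without SNHG5 replicate 3. ANLN (ENSG00000011426, chromosome 7, 36389806 to 36453791, plus strand) held 616, 536 and 489 CPM and 578, 155 and 494 CPM, a difference of 0.42 (SE 0.43), and only 0.03 without control replicate 2. CENPE, a kinetochore motor, held 213, 80.7 and 140.2 CPM and 229.5, 18.5 and 141 CPM, a difference of 0.16 that became -0.36 without control replicate 2. In each of these 4 genes control replicate 2 is the lowest control. The same holds for ASPM, a spindle pole protein (0.15, and -0.30 without that library), for CENPF (0.15 and -0.26) and for the motor KIF11 (0.24 and -0.07). Among the members, 9 change the sign of their fitted difference without control replicate 2: MCM3, MCM6, CENPE, CENPF, KIF11, KIF23, ASPM, UBE2C and TOP2A.

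**Figure D3:**
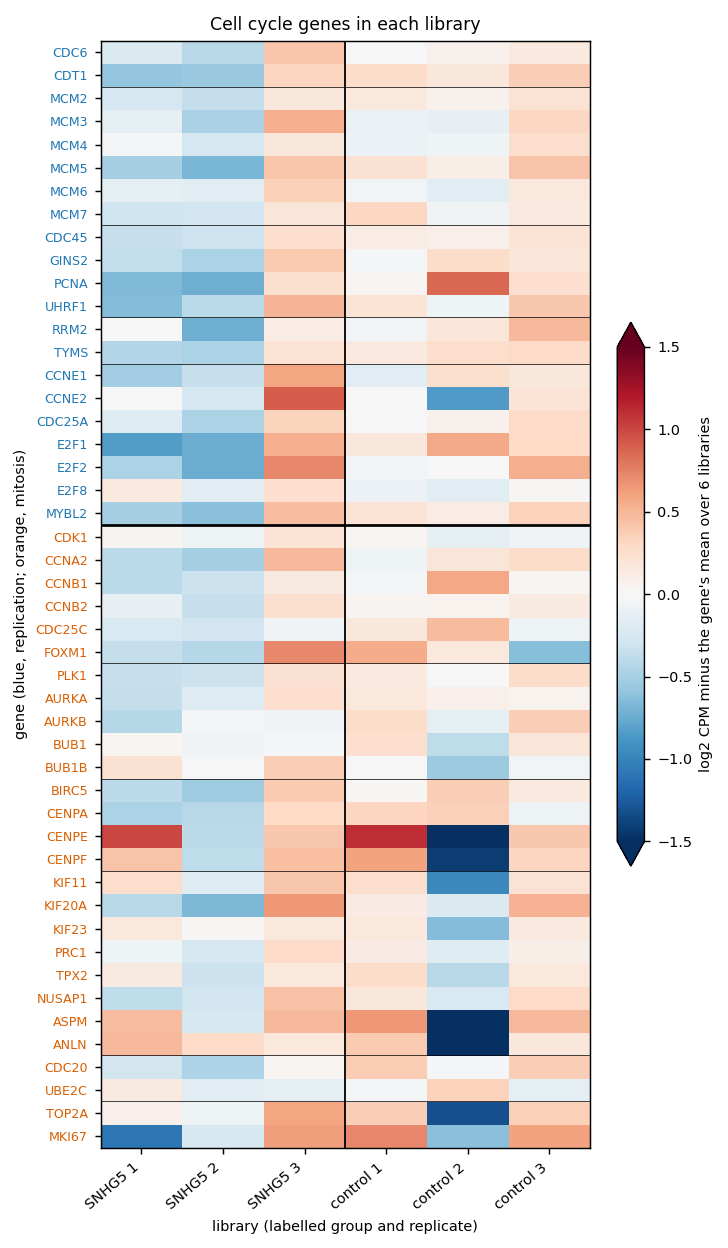
Log2 CPM of the 48 genes in the 6 libraries as the deviation from each gene's mean, with replication genes above mitotic genes (red, above the mean; blue, below; colours saturate at the ends of the scale). The SNHG5 replicate 3 column lies above SNHG5 replicates 1 and 2 for all 21 replication genes, and control replicate 2 is low for long mitotic genes such as CENPE at 18.5 CPM.

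Replication and mitotic genes were next compared library by library. The median deviation of the replication genes from their own mean was -0.35, -0.47 and 0.36 in SNHG5 replicates 1, 2 and 3 and 0.01, 0.07 and 0.26 in controls 1, 2 and 3, on the log2 scale. For the mitotic genes it was -0.13, -0.28 and 0.29 in the SNHG5 libraries and 0.17, -0.18 and 0.17 in the controls. The replication genes are lowest in SNHG5 replicates 1 and 2, while for mitotic genes control replicate 2 lies between SNHG5 replicates 1 and 2. Replication minus mitotic medians were -0.22, -0.20 and 0.08 in the SNHG5 libraries and -0.16, 0.25 and 0.09 in the controls, which overlap. Over the 6 libraries the median Pearson r between a pair of replication genes was 0.81, against 0.43 between a pair of mitotic genes and 0.46 between the groups. This is a description of 6 libraries that includes the group difference and the libraries that stand apart.

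SNHG5 replicate 3 lay above SNHG5 replicates 1 and 2 for 42 of 48 members, against 41.9% of all genes. It did so for 21 of 21 replication genes and 21 of 27 mitotic genes. Its median excess was 1.75-fold for replication genes and 1.35-fold for mitotic genes, and 0.02 on the log2 scale over all genes. The excess was over 2-fold in 7 replication and 3 mitotic genes, against 9.06% of all genes. SNHG5 itself was lowest in this library among the 3, at 62.8 CPM, and whether the 2 facts belong together was not tested. Without SNHG5 replicate 3, an edgeR unadjusted p under 0.05 was reached by 18 members in the lower direction, 11 of replication and 7 of mitosis, against 12.8% of all genes. After adjustment 0 passed, against 0.902% of all genes, and the smallest adjusted p was 0.0701, for E2F1. The medians without it were -0.52 for replication and -0.31 for mitotic genes. Leaving out a library that lies above its replicates for 42 of 48 members lowers the SNHG5 level of those members by construction. The count of 18 and these medians are therefore no separate support for a difference between the groups.

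**Figure D4:**
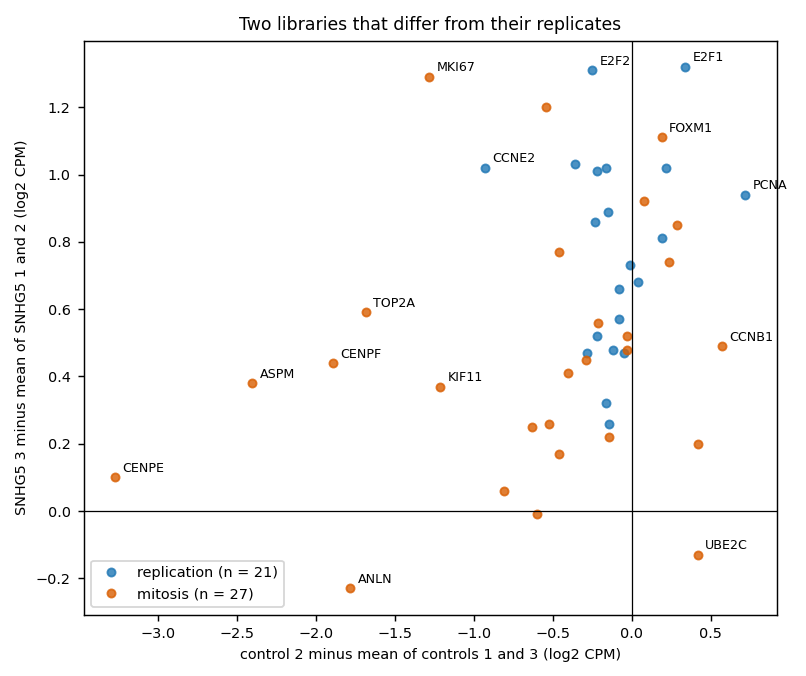
Each point is 1 of the 48 genes (blue, replication; orange, mitosis), with the log2 CPM difference of control replicate 2 from the mean of control replicates 1 and 3 on the horizontal axis and that of SNHG5 replicate 3 from the mean of SNHG5 replicates 1 and 2 on the vertical axis. SNHG5 replicate 3 is above both others for 42 members, and control replicate 2 is below both others for 29.

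Control replicate 2 lay below control replicates 1 and 3 for 29 of 48 members, 11 of replication and 18 of mitosis, against 40.5% of all genes. Its difference from the mean of the other controls ran from -3.27 for CENPE, 9.64-fold lower, to 0.72 for PCNA, 1.64-fold higher. The medians were -0.14 for replication and -0.46 for mitotic genes. Without this library the median SNHG5 minus control difference was -0.29 for replication and -0.19 for mitotic genes. The difference went with transcript length: Pearson's r with the log2 of the longest transcript was -0.74 over the 48 members (Spearman's rho -0.64), -0.80 over mitotic genes and -0.60 over replication genes. Over all 15587 genes with a length it was -0.32 (Spearman's rho -0.41). By rank it was -0.79 over mitotic and -0.49 over replication genes. These are descriptions across genes, which share the library and are not independent replicates. CENPE, CENPF, ASPM and MKI67, the 4 members with transcripts over 8000 bases, had values from -3.27 to -1.28, where the 1150 genes of that length had a median of -0.44 and a 5th to 95th percentile of -1.55 to 0.46. The 8 members of 4000 to 8000 bases had a median of -0.32, beside -0.22 in all genes, and the 29 members of 2000 to 4000 bases a median of -0.14, beside 0.04. Below 2000 bases the 7 members had a median of 0.04 and all genes 0.34. Mitotic genes as listed include the longest transcripts, so length and mitotic role go together among the 48 members. Outside them, 56 further mitotic genes had a median of -0.49 and an r of -0.62 with log2 length. For 48 further replication genes these were -0.14 and -0.64. The single mitotic genes named next were picked from those 56 after their values were seen. HMMR, KIF18A and TTK, of 3102, 3568 and 3725 bases, had differences of -2.53, -2.36 and -2.17. All genes of 2000 to 4000 bases had a 5th percentile of -1.18. The mitotic genes KIF2C and MELK, of 2955 and 2485 bases, had -0.15 and -0.14, and BUB3, of 7828 bases, 0.17. How far length or mitotic role goes with the difference was not tested. With a per-library correction for length, TOP2A differed by 0.22 and ANLN by 0.42.

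**Figure D5:**
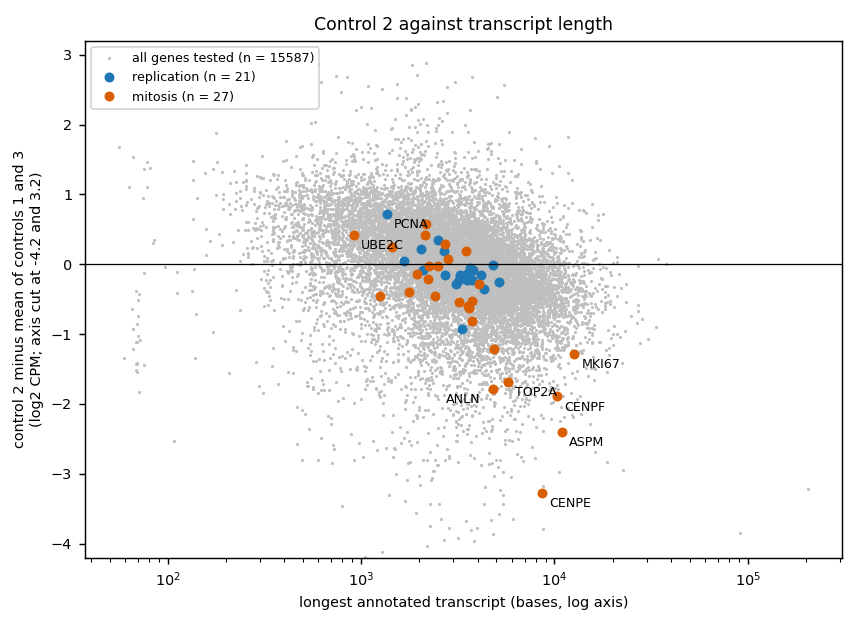
Difference of control replicate 2 from the mean of control replicates 1 and 3 on the log2 scale against the length of the longest transcript in bases on a log axis, for all genes in grey and members in colour. Of the members, CENPE, ASPM and CENPF lie lowest and PCNA highest. MKI67, the longest, lies at -1.28, above the shorter ANLN at -1.78 and TOP2A at -1.68. Beyond the axis limits lie 24 points.

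By same-numbered pairs, the replication genes had medians of -0.41, -0.54 and 0.10 for replicates 1, 2 and 3, and were lower in 18, 19 and 7 of 21 genes. The mitotic genes had medians of -0.29, -0.05 and 0.12, and were lower in 22, 14 and 7 of 27 genes. Of all members 7 were lower in every pair, MCM2, MCM5, PCNA, TYMS, CDT1, CDC20 and PLK1, against 17.7% of all genes. Another 4 were higher in every pair, CDK1, BUB1B, KIF23 and E2F8, against 17.1% of all genes. Both shares lie below the background.

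Genes of the same pathways that are not among the 48 were read in 3 lists. Of 48 further replication genes, all tested, 0 passed in either direction, 34 were fitted lower and 14 higher, and the median was -0.12. SNHG5 replicate 3 was above both others in 41 of them (85.4%), against 41.9% of all genes, and control replicate 2 below both others in 24 (50%), against 40.5%. The smallest p belonged to RMI2, a helicase partner, at 14.5, 10.9 and 25.3 CPM with SNHG5 and 24.8, 38.4 and 32.6 CPM with vector, which is -0.92 on the log2 scale (SE 0.34) at an edgeR adjusted p of 0.701. POLA2, a polymerase subunit, differed by -0.39, and the origin subunits ORC2 and ORC3 by 0.50 and 0.43 (0.33 and 0.11 without control replicate 2). Of 56 further mitotic genes 0 passed, 30 were fitted lower and 26 higher, and the median was -0.09. SNHG5 replicate 3 was above both others in 43 of these (76.8%) and control replicate 2 below both others in 39 (69.6%). CKS1B, a CDK subunit, held 45.8, 41.0 and 52.7 CPM and 65.7, 103 and 59.4 CPM, a difference of -0.71 (SE 0.25, edgeR adjusted p 0.656) that was -0.43 without control replicate 2, its highest library. Its groups do not overlap, as for 7.52% of all genes in that direction. The same holds for CENPM, CENPN, KIF2C, POLA2, PKMYT1, CDKN1B and FZR1 of the 3 lists. KIF18B differed by -0.58 (-0.94 without SNHG5 replicate 3). CENPK and KIF15 differed by 0.41 and 0.57, and by 0.13 and 0.15 without control replicate 2.

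The third list held 35 G1 cyclins, cyclin-dependent kinases, inhibitors and pocket proteins, of which 31 were tested and 0 passed. In this list 16 were fitted lower and 15 higher, with a median of -0.02, and SNHG5 replicate 3 was above both others in 13 (41.9%), the same share as over all genes. Control replicate 2 was below both others in 12 (38.7%). Cyclin D1, CCND1, held 841, 634 and 689 CPM in the SNHG5 libraries and 943, 691 and 929 CPM in the controls, a difference of -0.24 (SE 0.22). Its kinases CDK4 and CDK6 differed by -0.14 and 0.31, by 0.33 and 0.04 without control replicate 2, and by -0.05 and 0.60 without SNHG5 replicate 3. CDKN1A, the inhibitor p21, held 293, 416 and 154 CPM and 262, 358 and 186 CPM, a difference of 0.10 (SE 0.38) that was 0.36 without control replicate 2 and 0.40 without SNHG5 replicate 3. It is lowest in SNHG5 replicate 3, where most replication genes are highest among the SNHG5 libraries, but whether the values belong together was not tested. CDKN2A, the inhibitor p16, which A549 is known to have lost, was not tested, at 0.123 to 0.458 CPM. RB1 differed by 0.32 (0.20 without control replicate 2 and 0.46 without SNHG5 replicate 3). CCND3 differed by -1.01, with an edgeR adjusted p of 0.746, and by -1.51 without SNHG5 replicate 3. PKMYT1 differed by -0.64 (-0.99 without SNHG5 replicate 3) and LIN9 by 0.46 (0.14 without control replicate 2).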

How the data were processed

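Gene counts and FPKM were deposited by the authors for 6 A549 libraries. FastQC and the aligner HISAT2 were run on build GRCh38, per the submitters' processing notes. Which program counted reads per gene, and with which strand option, is not given in the sources used here. Per the labels' protocols, the kit was TruSeq RNA, which does not mark strand, so reads of overlapping genes cannot be told apart, and 18 of the 48 members have an exon that overlaps another gene. FPKM, also deposited, entered no calculation.

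Differences between groups come from edgeR 4.0.16 under R 4.3.3 (TMM factors, filterByExpr, robust quasi-likelihood test, two-sided, Benjamini-Hochberg over all 15631 genes tested, threshold 0.05). CPM uses TMM-scaled totals, and log2 CPM has a prior count of 2. The labels describe biological replicates without naming separate cultures. Counts varied between replicates with a common coefficient of 30.8%. The same fit was tested on simulated counts for 15631 genes. Alternatives were DESeq2 1.42.0, limma-voom (limma 3.58.1), other scalings and filters, leaving out each library, the replicate block, and, chosen after seeing the data, a length correction (loess span 0.5). Member and list identities matched GENCODE 29 by identifier, 48 of 48 members at the same position. Floors cover counting error only. A further leukocyte marker is not reported here.

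Same-numbered libraries deviated together, with correlations of 0.35, 0.16 and 0.29 (other combinations -0.34 to 0.12), so the numbers were taken to pair them in the block fit and the pair counts. The sample titles number the libraries but do not state a pairing, which was read from these same data. For replicate 2 the margin is narrow, at 0.16 against 0.12 for SNHG5 replicate 2 with control replicate 1. The main fit uses no pairing. Members, lists and rules were chosen with earlier results of these data known. Values in every library are given for the 4 members with the smallest p in each direction, the 2 largest differences per direction in each of the 2 sets, and MKI67, TOP2A, PCNA, CDK1, CCNB1, CCNE1, CCNE2, E2F1 and FOXM1. MCM5 and CENPE were added after their values were seen. Of each list outside the members, the 2 genes with the smallest p per direction are named, and CCND1, CDK4, CDK6, CDKN1A, CDKN2A and RB1. HMMR, KIF18A, TTK, KIF2C, MELK and BUB3 fall outside this rule and were added after their values were seen. CENPM, CENPN, CDKN1B and FZR1 are named only because their groups do not overlap.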

Additional observations from a re-analysis of the deposited data

How the results depend on the processing

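No alternative put any of the 48 genes past the adjusted threshold, in either direction. Over all genes, the 16 called lower numbered 69 under the replicate block, 246 by DESeq2, 72 with no filter, 61 with the block and the length correction together, and 0 to 144 when 1 library was left out. The 4 called higher became 20 with DESeq2 and 0 to 20 when 1 library was left out. The replication median (-0.25) ran from -0.52 to -0.14 when 1 library was left out and from -0.29 to -0.21 otherwise. The mitotic median (-0.12) ran from -0.31 to -0.01 and from -0.13 to -0.06. Their difference (-0.13) ran from -0.21 to -0.08 and from -0.17 to -0.13. Of the members, 29 kept their sign in every alternative (24 lower, 5 higher) and 19 turned at least once, without passing the threshold. Counts limit CCNE2 most, and 3 libraries per group limit every difference.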
